A study of Oryzias latipes with 5 samples.

Results

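The genes described here are 52 rows of a table of 25689 genes. Their symbols name an IFT or BBSome subunit, a ciliary kinesin or dynein-2 subunit, a transition zone protein or an associated factor. The rows were picked by symbol, but the set was chosen with earlier results of these data known. By role they were 13 genes of IFT-B, 6 of IFT-A, 6 of motors, 8 of the BBSome and its assembly, 13 of the MKS module, 4 of the NPHP module and basal body and 2 of Hedgehog transduction. Expression was measured by RNA sequencing of medaka (Oryzias latipes, Cab strain) cells that the labels call chondrocytes and osteoblast progenitors and the series describes as col10a1:nlGFP-expressing. There were 3 libraries from wild-type siblings (col10a1wt/wt) and 2 from heterozygous mutants (col10a1wt/mut). All fish carried the nlGFP reporter of col10a1, the type X collagen gene, on both chromosomes (col10a1:nlGFP+/+), were kept at 30 °C and were 10 days post fertilization. The libraries are described as biological replicates. The sources used here do not give what the mutant allele changes, how many fish went into a library or how the cells were isolated. The comparison asks which transcripts differ between the genotypes.

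The primary cilium is a single antenna-like projection that most vertebrate cells, chondrocytes and osteoblasts among them, build on a modified centriole, the basal body. Its parts are carried along the axoneme by intraflagellar transport (IFT), in which the IFT-B complex with kinesin-2 moves towards the tip and the IFT-A complex with dynein-2 moves back. The BBSome takes membrane proteins out of the cilium. The transition zone at its base, built from the MKS and NPHP protein modules, controls which proteins enter, and Hedgehog signals are read inside the cilium. Human mutations in these genes cause ciliopathies, several of which affect the skeleton.

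The labelled cell type was checked with 11 rows of skeletal genes. col10a1a stood between 4055 and 7272 FPKM (fragments per kilobase and per unit of sequencing depth) over the 5 libraries. The osteoblast factor sp7 stood between 193 and 279 FPKM, col1a1b between 229 and 529 FPKM and the cartilage gene matn1 between 33.7 and 150 FPKM. Markers of both labelled cell types were thus present. Of the other rows spp1, col10a1b and col1a2 lay between 281 and 993 FPKM. The rows of col2a1a lay at 4.33 to 18.0 and 2.25 to 6.93 FPKM, and acanb at 2.13 to 5.98 FPKM. alpl stood at 9.61 to 14.2 FPKM in the wild types and mutant library 1 but at 0.0484 FPKM in mutant library 2. Of these 11 rows 10 had a log2 difference below 0 in the mutants, with a median of -0.77, where 65.9% of all tested genes lay below 0, with a median of -0.31. None of the 11 passed the test used below, where 0.00731% of all tested genes did. At an unadjusted p under 0.05 by that test 6 were lower, where 7.60% of all tested genes were. Among markers of cells with other kinds of cilia, those of motile cilia were low, but the photoreceptor genes rho and arr3b were not. The 28 genes of motile cilia found in the table summed to between 2.50 and 9.54 FPKM in a library, with tekt1, dnaaf1 and rsph9 at 0 in all 5 libraries, and the 9.54 FPKM of mutant library 2 came from rsph3 alone. The 23 photoreceptor genes, whose cells carry a large modified cilium, summed to between 25.3 and 39.8 FPKM, mostly rho (5.39 to 23.9 FPKM) and arr3b (8.97 to 26.9 FPKM). The part of any of these markers in the results below was not tested.

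Depth was similar, 24791662 to 28012092 recovered reads in a library, but mutant library 2 stood apart. It had reads on 12334 genes against 19397 to 21134 in the other libraries, and its Pearson's r with any other library was 0.798 to 0.824, against 0.952 to 0.973 for the other pairs (across tested genes, which are no independent replicates). It is 1 of only 2 mutant libraries, so the counts and the main differences are given with and without it.

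Cilium genes were weakly to moderately expressed in wild-type cells, and 35 of the 52 averaged 1 FPKM or more there. Only 9 reached a mean of 10 FPKM, among them ift46 at 51.1 ± 11.4 FPKM (SD, n = 3), ift20 at 44.8 ± 6.15 FPKM and TMEM216 at 22.6 ± 1.48 FPKM. The median of the 52 genes was 1.76, 2.24 and 2.04 FPKM in wild types 1 to 3. For the 37 that passed the filter of the test it was 2.81, 3.71 and 3.12 FPKM, against 5.12, 5.81 and 5.44 FPKM for all genes that passed it. FPKM is per length, but whether an effect of length remains was not tested. Subunits of a shared complex differed widely in FPKM. In IFT-B the wild-type mean ran from 51.1 FPKM for ift46 to 0.742 FPKM for ift88. In dynein-2 it ran from 4.74 FPKM for the light intermediate chain dync2li1 to 0.180 FPKM for the heavy chain DYNC2H1. In both pairs the lower gene had the longer counted length, 5295 against 951 bp and 12681 against 1104 bp. b9d1, a B9 domain protein of the MKS module, had no read in any library, where 3 reads would have given 0.0406 to 0.0558 FPKM, a floor for counting error alone. The deposited span of b9d1 lies within that of epn2 on the opposite strand.

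**Figure D1:**
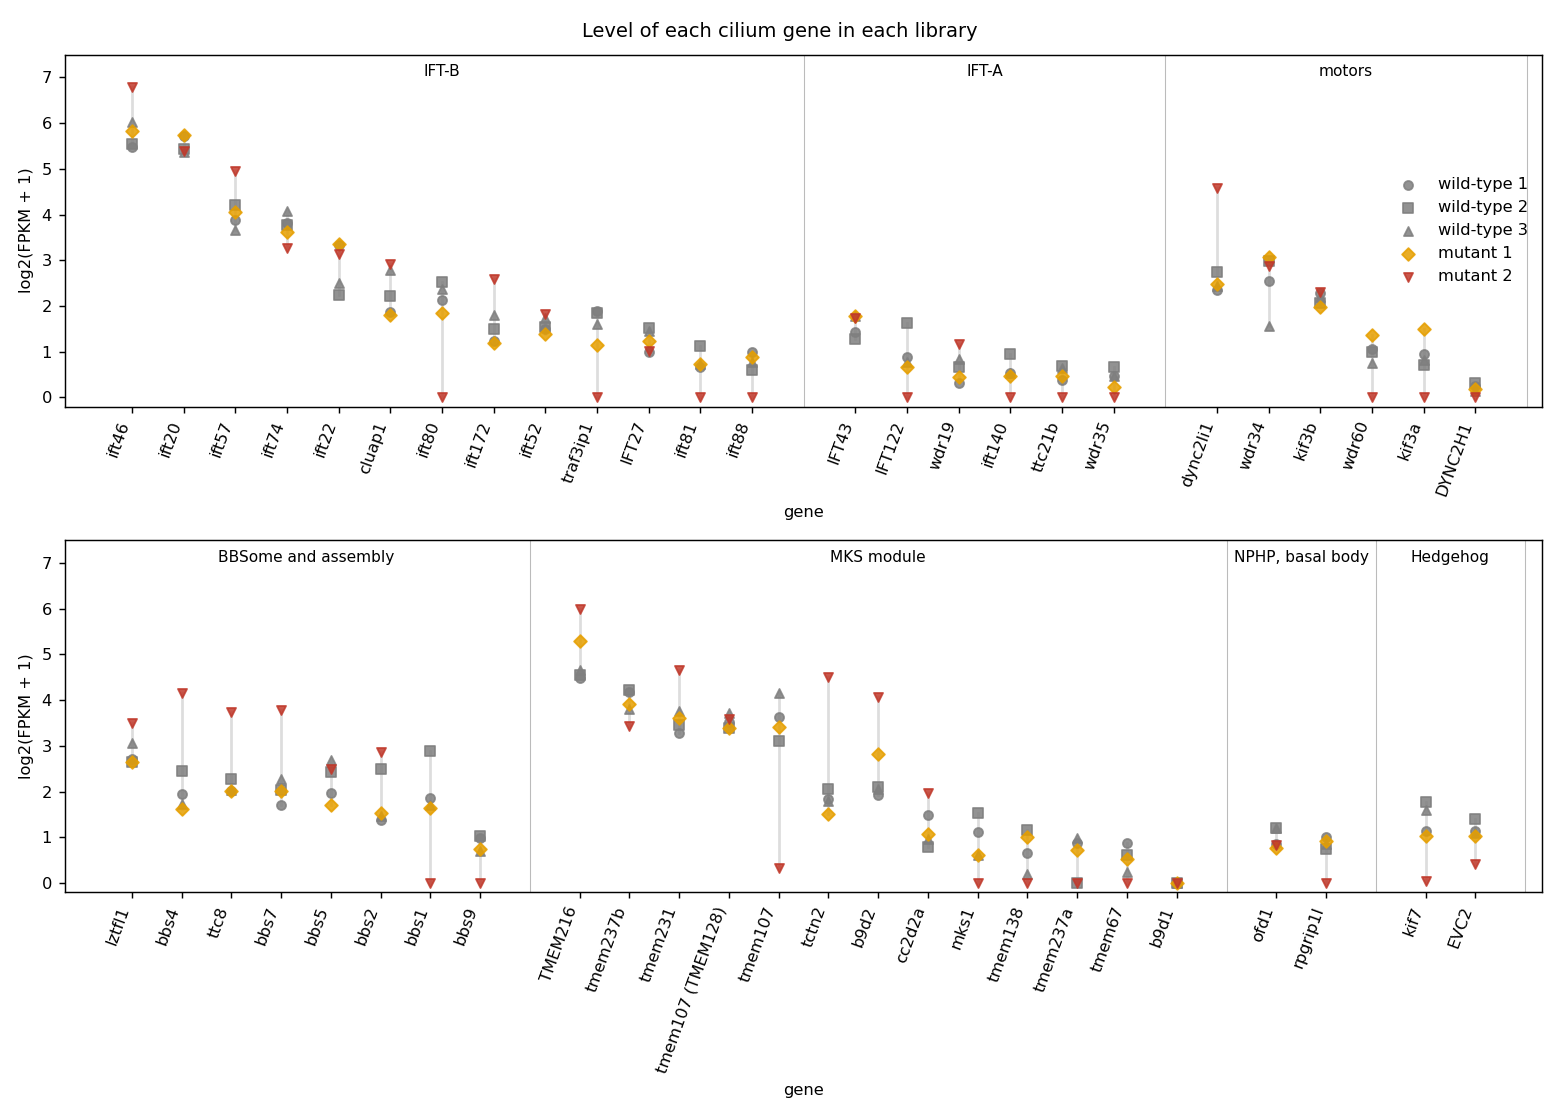
Level of 50 of the 52 genes on a log2(FPKM + 1) scale, grouped by role and ordered within a role by the mean over all libraries. Each marker is 1 library, the grey line spans the 5 libraries, and the gene labelled tmem107 (TMEM128) is the second row of that symbol. Wild-type markers lie close together for the abundant genes, while mutant library 2 lies at 0 for 18 of the genes shown and above every other library for TMEM216, b9d2, tctn2 and bbs4.

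Wild-type libraries themselves differed. Among the 50 cilium genes above 0 in all 3, the highest wild-type value was 1.73 times the lowest at the median, from 1.14 times for TMEM216 to 8.68 times for tmem138. The median log2 ratio of highest to lowest was 0.68 for the 37 tested cilium genes and 0.59 for all tested genes with wild-type values above 0. Wild-type library 2 held the highest value for 24 of the 50 genes (48.0%), against 41.3% of all tested genes. The BBSome subunits bbs1 and bbs2 show it. bbs1 stood at 2.62, 6.39 and 2.26 FPKM in wild types 1 to 3, and bbs2 stood at 1.61, 4.62 and 1.74 FPKM. These differences rest on 122 to 511 reads per value.

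No cilium gene passed the test between genotypes. Of the 52 genes 37 reached 1 FPKM in at least 2 libraries and were tested by limma on log2(FPKM + 1) over 13680 genes, and 0 of the 37 passed at an adjusted p under 0.05 (Benjamini-Hochberg), where 0.00731% of all tested genes did. The adjusted p ran from 0.399 to 0.987. At an unadjusted p under 0.05 there were 3 cilium genes, TMEM216 and b9d2 higher and traf3ip1 lower, or 8.11% against 10.8% of all tested genes (3.21% higher and 7.60% lower). The other test run, voom on the recovered reads, called 0 of 37 as well. Without mutant library 2 the count was again 0 of 37, where 0.0149% of all genes passed. Without mutant library 1 the lone mutant is mutant library 2, assumed to vary like the wild types. In that fit 16 of 34 passed, 11 of them higher and 5 lower, or 47.1% where 54.3% of all genes did (14.8% higher and 39.5% lower).

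The median tested cilium gene lay above the median of all tested genes in mutant library 2 and close to it in mutant library 1. The log2 difference of mutants from wild types was above 0 for 20 and below 0 for 17 (54.1% above, against 34.1% of all tested genes), with a median of 0.06, against -0.31 for all tested genes. Quantile normalization moved the split to 28 above and 9 below (75.7% above, against 51.2% of all tested genes). It moved the medians to 0.40 and 0.01. Against the wild-type mean, the median of the 37 genes was -0.15 for mutant 1 and 0.23 for mutant 2, where all tested genes stood at -0.16 and -0.49. Without mutant library 2 the fitted medians were -0.15 and -0.16, with 13 cilium genes above 0 and 24 below (35.1% above, against 32.8% of all tested genes). With no filter on low values the 51 genes with any read had a median of -0.15 against -0.14 for all genes. Both mutants exceeded all 3 wild-type libraries for 2 of 37 genes (5.41%, where 8.33% of all tested genes did) and below every one for 8 (21.6%, where 26.0% did).

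The 2 tested genes of the 52 that lay above every wild-type library in both mutants, TMEM216 and b9d2, belong to the MKS module of the transition zone. TMEM216 is a tetraspan membrane protein of the MKS module, mutated in human Joubert and Meckel syndromes. This gene (ENSORLG00000011578, chromosome 10, 30553429 to 30558484, minus strand, 432 bp of counted length, in the deposited coordinates, with no build named in the sources used here) stood at 21.3, 22.5 and 24.2 FPKM in wild types 1 to 3 and at 38.5 and 62.3 FPKM in mutants 1 and 2. The groups did not overlap, and the wild-type values lay within 1.14 times of each other. Means were 22.6 ± 1.48 FPKM (SD, n = 3) and 50.4 ± 16.9 FPKM (SD, n = 2), with a log2 difference of 1.08 (SE 0.29, 95% interval 0.41 to 1.75) and an adjusted p of 0.399 from limma. An exact two-sided permutation test gave p = 0.1 over 10 splits, the smallest it can give for 3 against 2 libraries. TMEM216 was the marker named with this set of genes, so neither p is independent of the choice of the set. Without mutant library 2 the log2 difference was 0.74 (adjusted p = 0.624), and without mutant library 1 it was 1.42 (adjusted p = 0.00160). Without wild-type library 1, 2 or 3 the difference stayed between 1.04 and 1.13.

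A far more abundant gene lies inside the span of TMEM216 on the other strand. tmed9, a cargo receptor of early secretory vesicles, occupies 30556204 to 30557777 on the plus strand of chromosome 10 and stood at 709, 581 and 752 FPKM in the wild types and at 958 and 1324 FPKM in the mutants. Its log2 difference was 0.73 (SE 0.25, adjusted p = 0.399). FPKM of tmed9 was 33.3, 25.9 and 31.1 times that of TMEM216 in the wild types and 24.9 and 21.2 times in the mutants, so the groups did not overlap in this ratio either. TMEM216 rested on 238 to 927 reads per library and tmed9 on 11173 to 29944. The sources used here name no strand setting for the read counting. The overlap is one of deposited spans, and whether counted bases of the genes overlap is not given. Without a strand setting, reads of any shared stretch could not be assigned with certainty to either gene. The part of tmed9 in the TMEM216 values was not tested. TMEM216 was not alone in this, as the spans of 22 of the 52 genes overlap that of another gene, 17 of them on the opposite strand. For example, ttc8 lies inside an opposite-strand gene at 21.8 to 42.1 FPKM in the wild types. The part of these overlaps in the other values was not tested either.

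**Figure D2:**
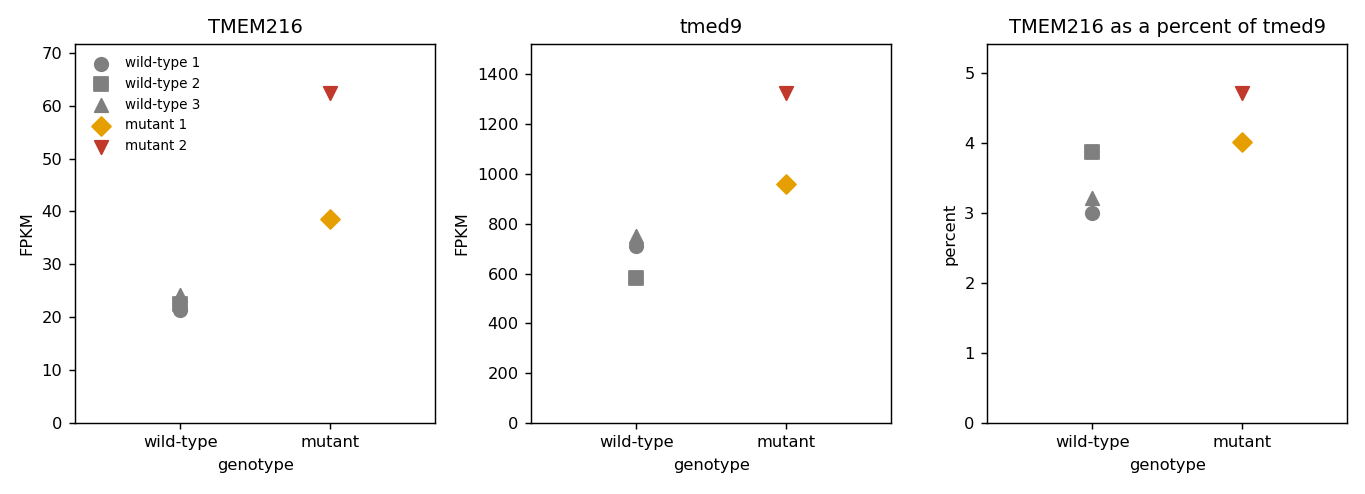
TMEM216 and tmed9 in FPKM and TMEM216 as a percent of tmed9, with 1 marker per library (3 wild-type, 2 mutant) and each axis starting at 0. Both genes lie higher in the 2 mutant libraries, and the percentage is highest in mutant library 2, at 4.71%.

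b9d2, the B9 domain partner of mks1 in the MKS module, showed the second pattern of this kind. It stood at 2.81, 3.31 and 3.13 FPKM in the wild types and at 6.08 and 15.7 FPKM in mutants, so mutant library 1 was at 1.97 times and mutant library 2 at 5.09 times the wild-type mean. The log2 difference was 1.41 (SE 0.48, adjusted p = 0.399 from limma), 0.80 without mutant library 2 and 2.03 without mutant library 1. POC1A, which overlaps b9d2 on the opposite strand, stood at 0.356 FPKM or less in every library.

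Other transition zone genes split by library. tmem231, a membrane protein of the MKS module, stood at 8.70, 9.99 and 12.5 FPKM in the wild types, at 11.2 FPKM in mutant library 1, within the wild-type range, and at 24.4 FPKM in mutant library 2. tctn2, a tectonic protein, stood at 2.55, 3.13 and 2.49 FPKM in the wild types, at 1.84 FPKM in mutant library 1 and at 21.8 FPKM in mutant library 2. The mutant libraries thus lay on opposite sides of the wild-type values, and the 1955 reads of tctn2 in mutant library 2 compared with 120 in mutant library 1. cc2d2a, a C2 domain scaffold, lay at 0.716 to 1.81 FPKM in the wild types and at 1.11 and 2.92 FPKM in the mutants. tmem237b was at 12.9 to 17.6 FPKM in the wild types and at 14.0 and 9.83 FPKM in the mutants.

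Several MKS genes were near or at 0 in mutant library 2. tmem107 on chromosome 16 (ENSORLG00000009892), another tetraspan protein of the module, stood at 11.3, 7.66 and 16.9 FPKM in the wild types and at 9.61 FPKM in mutant library 1, with 170 reads, but at 0.247 FPKM in mutant library 2, with 6 reads. Its log2 difference was -1.77 (SE 0.85, adjusted p = 0.399) and -0.23 without mutant library 2. A second row with the symbol tmem107, on chromosome 5, is described in the deposited table as another transmembrane protein (TMEM128), so its symbol and description disagree. It lay at 9.48 to 12.2 FPKM in the wild types and at 9.53 and 11.0 FPKM in the mutants. The gene mks1, the founding protein of the module, stood at 1.16, 1.87 and 0.538 FPKM in the wild types and at 0.532 FPKM and 0 in the mutants (log2 difference -0.78, SE 0.44, adjusted p = 0.402, and -0.47 without mutant library 2). tmem138, tmem237a and tmem67, the gene of meckelin, lay at or below 1.22 FPKM in every library and at 0 in mutant library 2. tmem237a was at 0 in wild-type library 2 as well. A row without a symbol, outside the set, is also described in the deposited table as TMEM138. It stood at 0.0723, 0.384 and 0 FPKM in the wild types and at 0.323 FPKM in mutant library 1. In mutant library 2 that row stood at 4.31 FPKM, with 238 reads, the opposite of the row named tmem138. It did not pass the filter of the test. Of the 10 tested genes of the module 5 were above and 5 below 0 in log2 difference, where 34.1% of all tested genes were above. After quantile normalization this was 7 and 3, where 51.2% of all tested genes were above.

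IFT-B genes lay above, within or below the wild-type range in mutant library 2, and no tested one lay above it in both mutants. The core subunit ift46 stood at 43.6, 45.6 and 64.2 FPKM in the wild types, at 56.0 FPKM in mutant library 1 and at 109 FPKM in mutant library 2. The first mutant lay within the wild-type range and the second above it, with a log2 difference of 0.63 (SE 0.34, adjusted p = 0.399) that was 0.15 without mutant library 2. ift57 showed the same order, with 13.7, 17.5 and 11.8 FPKM in the wild types and 15.5 and 30.1 FPKM in the mutants (log2 difference 0.58, SE 0.37, adjusted p = 0.424, and 0.13 without mutant library 2). ift20, a subunit that also sits at the Golgi, stood at 51.8, 42.2 and 40.3 FPKM in the wild types and 52.6 and 40.9 FPKM in the mutants. The groups overlapped, and the span of ift20 overlaps lyrm9 on the opposite strand. The gene ift74, whose protein binds tubulin together with ift81, was below every wild-type library in both mutants, at 12.7 to 15.8 FPKM against 11.4 and 8.66 FPKM (log2 difference -0.44, SE 0.31, adjusted p = 0.460, and -0.26 without mutant library 2).

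The lowest IFT-B differences belonged to genes with no read in mutant library 2. traf3ip1, the IFT54 subunit that contacts tubulin, stood at 2.69, 2.62 and 2.06 FPKM in the wild types, at 1.21 FPKM in mutant library 1 (122 reads) and at 0 in mutant library 2, where 3 reads would have given 0.0216 FPKM. Both mutants lay below the wild-type range. The log2 difference was -1.21 (SE 0.48, 95% interval -2.34 to -0.08, adjusted p = 0.399) and -0.64 without mutant library 2. ift80, whose loss in humans causes a skeletal dysplasia with short ribs, stood at 3.37, 4.74 and 4.19 FPKM in the wild types, at 2.59 FPKM in mutant library 1 (279 reads) and at 0 in mutant library 2, where the floor was 0.0203 FPKM. It too was below every wild-type library in both mutants, by -1.42 (SE 0.61, adjusted p = 0.399), or -0.50 without mutant library 2. ift88, a core subunit needed to build cilia in mouse, lay between 0.516 and 0.992 FPKM in the wild types, at 0.858 FPKM in mutant library 1 and at 0 in mutant library 2. By contrast ift172, the largest IFT-B subunit, was at 1.36, 1.83 and 2.48 FPKM in wild-type, 1.29 FPKM in mutant library 1 and 5.03 FPKM in mutant library 2. The small GTPases ift22 and IFT27, the core subunits ift52 and ift81 and cluap1, or IFT38, completed the group. Their log2 differences lay between -0.20 for IFT27 and 0.56 for ift22, except that ift81, under 1.2 FPKM everywhere and with 1 read in mutant library 2, was not tested. Of 11 tested genes 7 were above and 4 below 0, where 34.1% of all tested genes were above. Without mutant library 2 this was 4 and 7, where 32.8% of all tested genes were above.

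IFT-A genes were low throughout. IFT43 alone was tested, at 1.71, 1.41 and 2.46 FPKM in the wild types and 2.44 and 2.32 FPKM in the mutants (log2 difference 0.26, SE 0.43, adjusted p = 0.746), and the groups overlapped. IFT122, ift140, ttc21b, wdr35 and wdr19 lay between 0.238 and 2.09 FPKM in the wild types and between 0.175 and 0.581 FPKM in mutant library 1. In mutant library 2 the first 4 had no read, while wdr19, the IFT144 subunit, had 399 reads and 1.25 FPKM, above its wild-type range of 0.238 to 0.797 FPKM.

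Among motors, dync2li1, the light intermediate chain of the retrograde motor, stood at 4.13, 5.69 and 4.39 FPKM in the wild types, at 4.59 FPKM in mutant library 1 and at 22.9 FPKM in mutant library 2. Only the last lay outside the wild-type range. The log2 difference was 1.02 (SE 0.62, adjusted p = 0.414) and -0.029 without mutant library 2, so its sign turned. The dynein-2 intermediate chain wdr34 was at 4.80, 6.87 and 1.94 FPKM in the wild types and at 7.38 and 6.30 FPKM in the mutants. Its partner wdr60 was at 0.680 to 1.09 FPKM in the wild types and at 1.59 FPKM in mutant library 1, with no read in mutant library 2. For kinesin-2, kif3b stood at 3.86, 3.19 and 3.56 FPKM in the wild types and 2.96 and 3.97 FPKM in the mutants. kif3a, its usual partner, was at 0.939, 0.646 and 0.766 FPKM in the wild types, at 1.81 FPKM in mutant library 1, 2.31 times the wild-type mean on 202 reads, and had no read in mutant library 2. DYNC2H1 lay at or below 0.253 FPKM.

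BBSome genes stood on both sides of the wild-type values in mutant library 2. There bbs4 stood at 16.8 FPKM, bbs7 at 12.8 FPKM and ttc8, the BBS8 subunit, at 12.4 FPKM, or 5.24, 4.16 and 3.70 times their wild-type means of 3.20 ± 1.12, 3.07 ± 0.803 and 3.33 ± 0.465 FPKM (SD, n = 3). In that library bbs1 and bbs9 had no read. In mutant library 1 the same genes stood at 2.06 FPKM for bbs4, 3.06 FPKM for bbs7, 3.01 FPKM for ttc8, 2.13 FPKM for bbs1 and 0.682 FPKM for bbs9, at 0.567 to 0.996 times their wild-type means. bbs1 had the lowest difference of the group, -1.33 (SE 0.64, adjusted p = 0.399), or -0.50 without mutant library 2, and a floor of 0.0485 FPKM in that library. bbs2 and bbs5 were at 1.87 and 2.24 FPKM in mutant library 1 and at 6.32 and 4.63 FPKM in mutant library 2. lztfl1, a regulator of BBSome traffic and the most abundant of the group, stood at 5.53, 5.22 and 7.37 FPKM in the wild types and at 5.25 and 10.3 FPKM in the mutants (log2 difference 0.27, SE 0.42, adjusted p = 0.730, and -0.16 without mutant library 2). Of 7 tested genes 5 were above 0 with both mutants, where 34.1% of all tested genes were. Without mutant library 2 this was 1, where 32.8% of all tested genes were above 0.

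Genes of the NPHP module and basal body were low. The gene ofd1, a centriolar protein, stood at 0.800, 1.30 and 1.29 FPKM in the wild types and at 0.711 and 0.769 FPKM in the mutants, below every wild-type library in both (log2 difference -0.28, SE 0.38, adjusted p = 0.685). This sign turned to 0.34 after quantile normalization. The transition zone scaffold rpgrip1l stood at 0.9996, 0.671 and 0.803 FPKM in the wild types and at 0.890 FPKM in mutant library 1 (100 reads), within that range, and had no read in mutant library 2.

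The 2 Hedgehog genes among the 52, kif7 and EVC2, lay below every wild-type library in both mutants in deposited FPKM. Of all tested genes 26.0% did so. Hedgehog genes outside the 52 lay on both sides of 0 in log2 difference, such as smo at 0.45 and sufu at -1.91. kif7, the kinesin that organises the ciliary tip for Gli factors, stood at 1.21, 2.39 and 2.02 FPKM in the wild types, at 1.05 FPKM in mutant library 1 and at 0.0294 FPKM (6 reads) in mutant library 2. The log2 difference was -0.96 (SE 0.47, adjusted p = 0.399) and -0.46 without mutant library 2. EVC2, a membrane protein at the base of the cilium that is mutated in human Ellis-van Creveld chondrodysplasia, stood at 1.21, 1.64 and 1.14 FPKM in the wild types and at 1.04 and 0.335 FPKM in the mutants (log2 difference -0.49, SE 0.41, adjusted p = 0.511, and -0.18 without mutant library 2). Both genes were below every wild-type library in both mutants, and neither passed the test. After quantile normalization the difference of EVC2 turned to 0.26 and that of kif7 was -0.070.

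**Figure D3:**
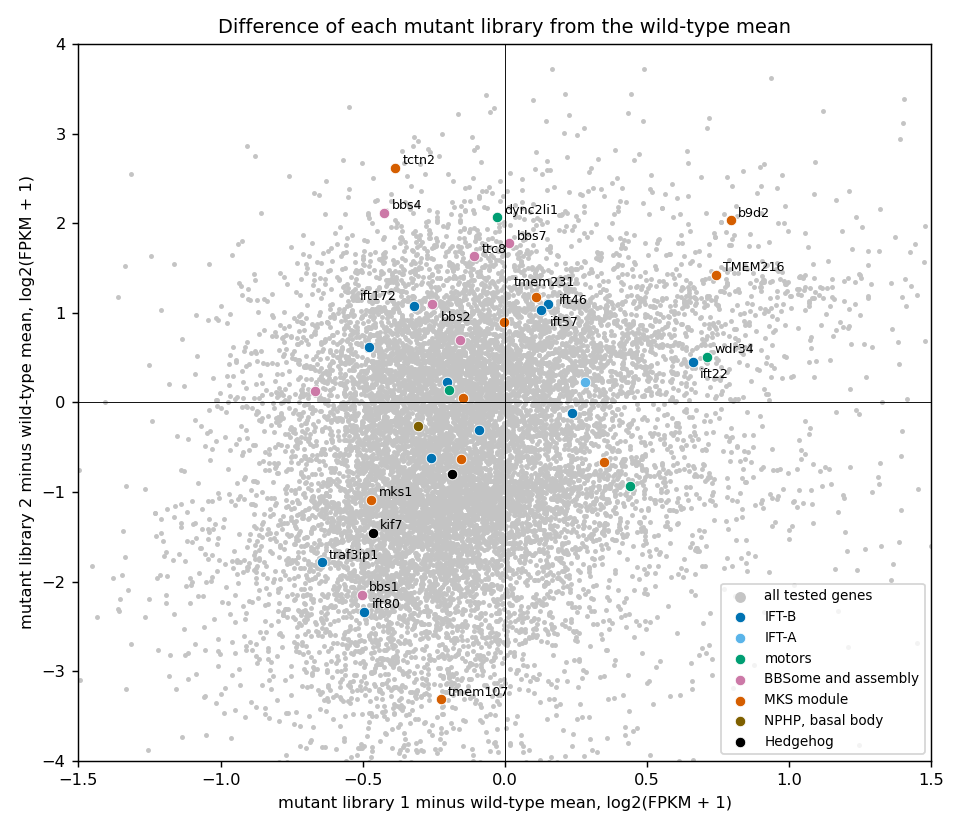
Difference of mutant library 1 (x axis) and mutant library 2 (y axis) from the wild-type mean on the log2(FPKM + 1) scale, for 36 of the 37 tested cilium genes coloured by role and all 13680 tested genes in grey, 196 of which lie outside the axes. b9d2 and TMEM216 lie high on both axes, while tctn2, bbs4 and dync2li1 lie high on the y axis only and tmem107 on chromosome 16, ift80 and bbs1 lie low on it.

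The level of a gene went with its presence in mutant library 2. For 50 cilium genes each of the 4 other libraries held reads, and 18 of these had none in it (36.0%, against 34.1% of 17749 genes chosen the same way). By wild-type mean, these were 13 of 15 genes under 1 FPKM (86.7%, against 65.7% of all genes), 2 of 9 from 1 to 2 FPKM (22.2% against 48.2%), 2 of 10 from 2 to 4 FPKM (20.0% against 34.7%), 1 of 7 from 4 to 8 FPKM (14.3% against 23.4%) and 0 of 9 at 8 FPKM and over (against 5.97%). Counting tmem237a too, 19 genes had reads in mutant library 1, from 10 to 279, and none in mutant library 2, where 3 reads would have given between 0.00687 and 0.144 FPKM. Their median counted length was 4244 bp, against 2509 bp for the 32 genes with reads in that library.

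Mutant library 2 also held more cilium genes well above the wild-type mean than mutant library 1. Of the 37 tested genes, 13 stood at 2 times the wild-type mean or more in mutant library 2 (35.1%, where 13.9% of all tested genes did), and 0 did in mutant library 1 (where 2.65% did). In the same libraries 10 and 2 genes stood at 0.5 of the wild-type mean or less (27.0% and 5.41%, where 43.6% and 6.15% did). The sum over all 52 genes was 272, 282 and 293 FPKM in the wild types, 299.8 FPKM in mutant library 1 and 461 FPKM in mutant library 2. In mutant library 2 it included 109 FPKM of ift46 and 62.3 FPKM of TMEM216, while 20 of the genes were at 0. The median of the 52 genes was lowest there, at 1.14 FPKM, against 1.76 to 2.24 FPKM in the wild types and 1.72 FPKM in mutant library 1. Other ciliary and basal body genes outside the 52 summed to 345, 347 and 386 FPKM in the wild types, 351 FPKM in mutant library 1 and 290 FPKM in mutant library 2. These included bbip1 of the BBSome and hspb11 of IFT-B, with wild-type means of 85.8 and 44.9 FPKM. The sums thus divide subunits of the same complexes. In bulk libraries, a change in the share of cells that express a gene and a change in RNA per cell cannot be told apart. The part of the sparse detection of mutant library 2 in these values was not tested.

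**Figure D4:**
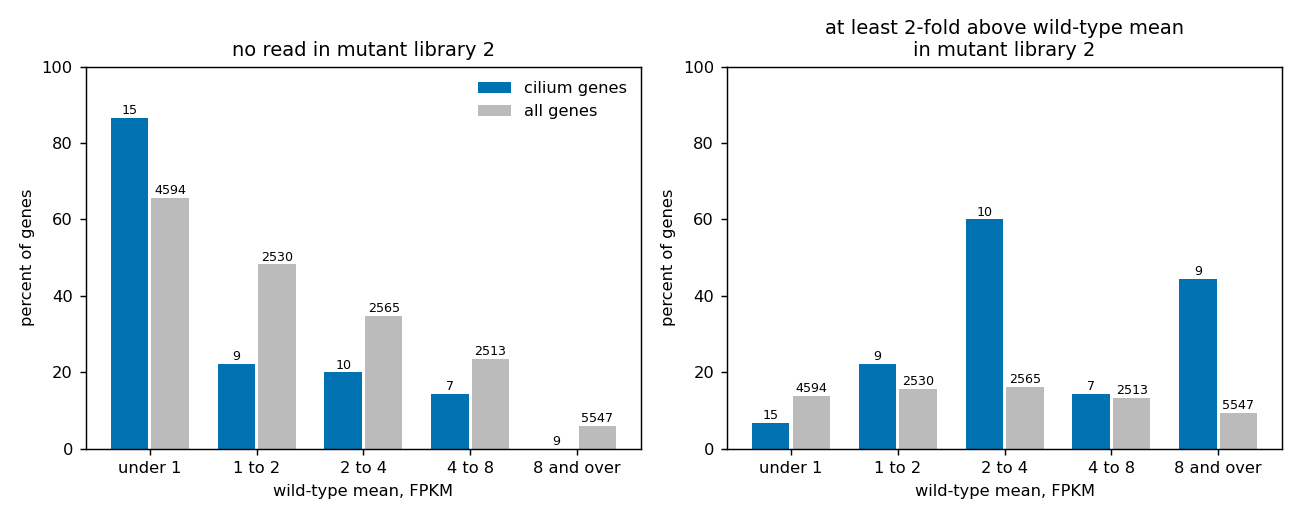
Percent of genes with no read in mutant library 2 (left) and at 2 times the wild-type mean or more in it (right), by wild-type mean in FPKM, for genes with reads in all 4 other libraries. Blue bars are cilium genes, grey bars all genes, and the number above a bar is the number of genes in it. Cilium genes under 1 FPKM had no read in 13 of 15 cases, while 6 of 10 at 2 to 4 FPKM and 4 of 9 at 8 FPKM and over stood at 2 times the wild-type mean or more.

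Other cilium genes outside the 52 gave no call either. Of 46 tested other ciliary and basal body genes 13 were above and 33 below 0, where 34.1% of all tested genes were above. Their median log2 difference was -0.27, close to the -0.31 of all tested genes. Besides genes of the basal body, ciliary membrane and ciliary signalling, this list held bbip1 of the BBSome, hspb11 of IFT-B and transition zone genes such as tmem17. Of the ciliary transcription factors 4 were tested, rfx1a, rfx1b, rfx2 and rfx3, with a median of -0.82 and rfx1a alone above 0, and the 9 tested genes of cilium disassembly had a median of -0.13, with 3 above 0. None of these 59 genes passed at an adjusted p under 0.05 by limma, where 0.00731% of all tested genes did. At an unadjusted p under 0.05 there was 1, a gene of the first list that was lower, where 10.8% of all tested genes had such a p.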

How the data were processed

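Messenger RNA was sequenced in 5 libraries, made per the labels' protocols with a SMARTER mRNA-Seq kit. HISAT2 2.0.5 and featureCounts 1.5.0-p3 are named in the submitters' processing notes, while build, annotation and strand setting are not stated there. Per the file headers, the deposited values are FPKM per gene, scaled to depth by the authors. Reads recovered from FPKM and gene length came out whole for 100% of values within 0.02 reads, and the deposited scaling stood at 0.980 to 1.23 times the reads of a library, highest in mutant library 2.

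Groups came from the labelled genotype. Genes with 1 FPKM or more in at least 2 libraries were compared on a log2(FPKM + 1) scale. The test was that of limma 3.58.1, run in R 4.3.3 (moderated variances with a trend, Benjamini-Hochberg over all 13680 genes, threshold 0.05). Differences on this scale understate changes of low genes. TMEM216 was also compared by an exact permutation test (scipy 1.17.1). The procedure was tested on data simulated from the wild-type means. No simulated library was sparse like mutant library 2, so that case was not covered. Alternatives were another pseudocount, other filters, 2 other scalings, array weights, a replicate block, voom and leaving out each library. The libraries are described as biological replicates, but the sources used here do not say whether each came from separate fish. The p-values therefore measure the spread between libraries.

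The genes and lists were chosen with earlier results of these data known. Described genes were TMEM216, the 6 higher and 6 lower tested genes with the smallest p and the most abundant gene of each role. All others given with values, such as tctn2, bbs4 and tmed9, were chosen after their values were seen. Some genes are in the counts but are not reported here individually. A planned search of promoters for a motif was not run, since no promoter sequence was used here.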

Additional observations from a re-analysis of the deposited data

How the results depend on the processing

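No cilium gene passed under a pseudocount of 0.1, no filter, quantile normalization, a stricter filter at 5 FPKM, median-of-ratios scaling, array weights, voom or the replicate block. Leaving out 1 library gave 0 to 16 passing genes, 16 of them without mutant library 1 and 0 in the other 4 fits. The median log2 difference of the tested genes, 0.06, became -0.15 with no filter (51 genes), 0.56 at a minimum of 5 FPKM (15 genes), 0.16 after median-of-ratios scaling and 0.40 after quantile normalization, and lay between -0.15 and 0.34 with 1 library left out. The difference of TMEM216 ran from 0.74 without mutant library 2 to 1.42 without mutant library 1, with adjusted p from limma between 0.00160 and 0.784 over all alternatives. Among the genes picked by smallest p or by abundance, the sign turned for ofd1 (0.34) after quantile normalization. It also turned for dync2li1 (-0.029 to 2.07 with 1 library left out) and for lztfl1 (-0.16 to 0.70), both without mutant library 2. Signs turned for further genes, among them EVC2 (0.26) and IFT27 (0.40) after quantile normalization. Without mutant library 2 they turned for tctn2 (-0.39), bbs4 (-0.42), ttc8 (-0.11), bbs2 (-0.26) and ift172 (-0.32), among others. The cause of these shifts was not tested. For the genes picked by smallest p or by abundance, apart from TMEM216, 158 of the other values kept direction and side of the threshold. The remaining 10, all without mutant library 1, kept direction and were larger. These counts do not cover the other cilium genes. Replicate numbers are shared between the groups, and whether they pair libraries is not stated. Deviations from the group means correlated at 0.06 for number 1 and -0.01 for number 2. With 2 mutant libraries their deviations mirror each other, so these correlations cannot decide whether libraries were paired. With the replicate number as a block, 0 cilium genes and 145 of all genes passed, against 1 without it, and the median was 0.09 and the TMEM216 difference 1.13. Number 3 occurs only in the wild types, so wild-type library 3 added nothing to the differences of this fit. Of the 2 mutant libraries 1 was sparse, and genes of low level most often had no read in it. This held for 65.7% of all genes under 1 FPKM in wild-type mean and 5.97% at 8 FPKM and over. How reliably genes of each level were measured was not tested.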

Other observations

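Some cilium genes carry another symbol or none and are known only by their description in the deposited table. There were 21 such rows, 10 of them tested and 3 with no read in any library. By limma 0 passed (lowest adjusted p = 0.399), where 0.00731% of all tested genes did. The rows given below were chosen after their values were seen. A row described as the IFT25 subunit of IFT-B (zgc:158640) stood at 6.20, 8.18 and 8.80 FPKM in the wild types and at 12.1 and 15.3 FPKM in the mutants. Its log2 difference was 0.76 (SE 0.34). Both mutants lay above every wild-type library, as for 8.33% of all tested genes. The row named hspb11, another name of IFT25, was more abundant and lay on the other side, at 52.9, 40.9 and 41.0 FPKM in the wild types and at 34.3 and 36.4 FPKM in the mutants (log2 difference -0.33, adjusted p = 0.471). The IFT56 subunit ttc26 stood at 2.88, 4.10 and 3.85 FPKM in the wild types, at 3.03 FPKM in mutant library 1 and at 0 in mutant library 2. A row described as Tectonic-3 stood at 6.08, 9.07 and 9.82 FPKM in the wild types, at 7.41 FPKM in mutant library 1 and at 0.0823 FPKM in mutant library 2, while tctn2 of the same family stood at 21.8 FPKM in that library.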
